A study of Rattus norvegicus with 38 samples.

Results

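The inferior sinoatrial node of failing rat hearts was compared with that of healthy hearts, using the libraries that the labels call inferior node. These were 8 of the 38 libraries of the series, 4 from failing and 4 from healthy hearts. The failing group held iSAN0409, iSAN0506, iSAN0507 and iSAN0508, and the healthy group held SB_0920, SB_0921, SB_1001 and SB_1002. All came from male Sprague-Dawley rats aged 10 weeks. Per the labels' protocols, pups had their ascending aorta narrowed at 1 week of age and went on to left ventricular hypertrophy. The labels repeat this text for the healthy libraries, so whether healthy rats had sham surgery or none is not known here. The labels do not say whether libraries of a group came from separate animals, so p-values measure the spread between these libraries, which may be technical in part. The other libraries were 8 of the superior node, 8 of the right atrium, 8 of the left atrium and 6 of the left ventricle.

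The sinoatrial node is the heart's pacemaker, a strip of specialised muscle cells set in connective tissue where the superior vena cava joins the right atrium. Its cells depolarise on their own and pass the impulse to the surrounding atrial muscle. Node myocytes carry fewer contractile elements and fewer fast-conducting junctions than working atrial myocytes, and leading pacemaker activity can shift between the superior and the inferior node. Narrowing of the aorta raises the pressure load on the left ventricle, and the atria are then loaded as well. The study addressed how both parts of the node change in this model.

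The deposited table names genes by Ensembl identifier alone. Of its 24057 identifiers, 0 matched an entry of the gene table at hand, so no gene is given a symbol or a role here, and cell type and function lists could not be applied. Whether the pieces held node tissue was therefore not checked against pacemaker or atrial marker genes. Genes are described by how far they moved, by how abundant and how long their transcripts were, and by how the other heart regions expressed them. In such pieces of tissue, fewer cells of a type and less RNA per cell cannot be told apart.

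The 8 libraries held between 18702643 and 23830328 estimated counts (reads assigned to genes), with a mean of 19689547 ± 1303165 in failing and 22066084 ± 1884866 in healthy node (SD, n = 4 each; exact two-sided permutation test, p = 0.114). With 4 against 4 libraries the smallest p this test can give is 0.0286. Genes at 1 TPM (transcript abundance scaled to a fixed total per library) or more numbered 12940 ± 361.3 in failing and 12590 ± 155.6 in healthy node (SD, n = 4 each; exact permutation test, p = 0.143). The 10 most abundant genes were taken in each library separately, so they may differ between libraries. They took 18.8% ± 5.51 of counts in failing and 23.4% ± 3.5 in healthy node (SD, n = 4 each, exact permutation test, p = 0.229). The share was highest among failing libraries in iSAN0409, at 26.4%. None of these 3 differences passed the test, and iSAN0409 was the failing library that overlapped the healthy ones. Without it, the failing libraries lay wholly below the healthy ones in estimated counts and in the share of the 10 most abundant genes, and wholly above them in genes at 1 TPM or more, each with an exact permutation p of 0.057, the smallest that 3 against 4 libraries allow. The difference in genes was 350 with all libraries and 217 without iSAN0506. The difference in the share, in percentage points, was -4.60 with all libraries, -7.14 without iSAN0409, -2.84 without iSAN0506 and -2.95 without SB_0921. The part of depth and composition in the results that follow was not tested. The healthy libraries carry other 4-digit codes than the failing ones, so a batch that went with the codes and the health state cannot be told apart.

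Many genes differed between failing and healthy inferior node, split almost evenly between the 2 directions. Of 14379 genes that passed a filter on low counts, 2803 were higher in failing node (19.5% of those tested) and 2730 were lower (19.0%), by edgeR's quasi-likelihood test at a Benjamini-Hochberg adjusted p under 0.05. The other 9678 genes of the table were below the filter. Without adjustment, 6957 genes had a p under 0.05. The even split depended on scaling: limma on log2(TPM + 1) called 1930 higher and 953 lower, so that 66.9% of calls were higher against 50.7% here, and TMM-scaled TPM gave 2631 and 2871. All 4 failing libraries lay above all 4 healthy ones for 2566 genes (17.8%), of which 2319 were also called higher. All 4 failing libraries lay below all 4 healthy ones for 2780 genes (19.3%), of which 2449 were also called lower. The median change over all tested genes was 0.01 on the log2 scale.

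Increases were larger than decreases. The median log2 change was 0.84 among the genes that rose and -0.62 among those that fell. A change of at least 1.5-fold was reached by 1998 of the genes that rose and 1483 of those that fell. At 2-fold the counts were 1138 and 565 genes, at 4-fold 244 and 73, at 8-fold 46 and 11, and at 16-fold 12 and 2. Complete switches were rare. Just 3 genes had at least 10 estimated counts in every failing library and at most 3 in every healthy one, and 2 genes showed the opposite.

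**Figure D1:**
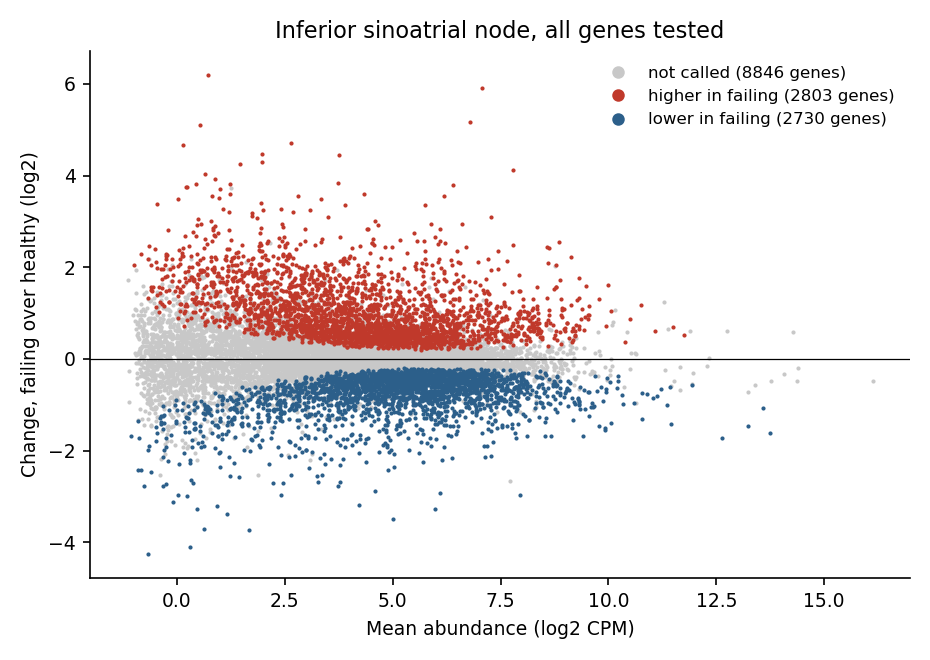
Change of each of 14379 genes in the inferior node (failing over healthy, log2) against its mean abundance (log2 CPM, counts scaled to library size); 1 point per gene, red for the 2803 higher and blue for the 2730 lower in failing node at an adjusted p under 0.05. Points reach farther above 0 than below it, with 244 genes up and 73 down by at least 4-fold.

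The shift took up a large part of the transcript pool. Genes that rose made up 17.9%, 26.5%, 23.6% and 28.5% of all TPM in the failing libraries iSAN0409, iSAN0506, iSAN0507 and iSAN0508 (24.1% ± 4.59, SD, n = 4). They made up 11.3%, 10.1%, 13.8% and 12.5% in the healthy libraries SB_0920, SB_0921, SB_1001 and SB_1002 (11.9% ± 1.6, SD, n = 4). The lowest failing library, iSAN0409, still lay above the highest healthy one. Genes that fell took 13.3%, 13.7%, 12.6% and 11.5% in failing libraries, in the same order (12.8% ± 0.931, SD, n = 4). Their share in healthy libraries was 23.5%, 22.6%, 21.5% and 23.8% (22.9% ± 1.03, SD, n = 4). These shares describe genes chosen for their change in the same libraries, so they size the shift and test nothing.

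Change reached all levels of expression, and its direction differed between them. Among the 924 genes at a mean of 100 TPM or more, 305 rose (33.0%) and 176 fell (19.0%), with a median log2 change of 0.10. Among the 5919 genes between 10 and 100 TPM, 1207 rose (20.4%) and 1417 fell (23.9%), with a median of -0.02. Among the 5920 genes between 1 and 10 TPM, 1143 rose (19.3%) and 1004 fell (17.0%), with a median of 0.04. Below 1 TPM, where counts limit the test, 148 of 1616 genes rose (9.16%) and 133 fell (8.23%). Of the 50 most abundant genes 10 rose and 13 fell, close to the 19.5% and 19.0% of all tested genes, with log2 changes between -1.69 and 1.59 and a median of -0.16. Of the 10 most abundant, 0 rose and 2 fell, and their median was -0.40. Both sets were ranked by mean TPM over the inferior node libraries, not within each library.

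The 4 genes described next were chosen by size of change among called genes whose groups did not overlap. Their calls and their separation in the inferior node were thus fixed by that choice. Among the strongest changes, ENSRNOG00000008015 was low in healthy node and far higher in every failing library. It stood at 145, 405, 130 and 235 CPM in failing node (229 ± 126, SD, n = 4), in the library order given above. It stood at 4.25, 2.4, 4.07 and 4.11 CPM in healthy node (3.71 ± 0.872, SD, n = 4). All 4 failing libraries were far above all 4 healthy ones, and iSAN0506 was the highest. The log2 change was 5.90 (SE 0.44, edgeR adjusted p = 0.000369). In the superior node the log2 change of this gene was 7.48 (SE 0.68, edgeR adjusted p = 0.00172), and in the right atrium it was 5.14 (SE 0.47, edgeR adjusted p = 0.00017).

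ENSRNOG00000029949 rose as well, with a wide spread among failing libraries. It measured 33.2, 60.1, 98.2 and 555 CPM in failing node (187 ± 247, SD, n = 4) and 2.75, 4.57, 4.28 and 8.78 CPM in healthy node (5.1 ± 2.58, SD, n = 4). The groups did not overlap, but iSAN0508 held far more than the other failing libraries. The log2 change was 5.17 (SE 0.98, edgeR adjusted p = 0.00465), and without iSAN0508 it was 3.61. The superior node gave a log2 change of 4.56 (edgeR adjusted p = 0.0223) and the right atrium 1.07 (edgeR adjusted p = 0.0211). The difference between the changes in the inferior node and the right atrium was 4.11 (SE 1.07, edgeR adjusted p = 0.28), which did not pass.

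Among the genes that fell, ENSRNOG00000021943 was at a few reads in most failing libraries. It measured 0.0883, 0.963, 0.257 and 0.163 CPM in failing node (0.368 ± 0.403, SD, n = 4), from 2.04, 23.6, 5.95 and 3.97 estimated counts, so it passed the filter on low counts through the healthy group. In healthy node it measured 5.51, 4.72, 4.11 and 5.27 CPM (4.9 ± 0.625, SD, n = 4). Healthy libraries were close to each other and all above the failing ones, among which iSAN0506 was the highest. The log2 change was -3.74 (SE 0.56, edgeR adjusted p = 0.00185) and -4.84 without iSAN0506. It was -2.43 in the superior node (edgeR adjusted p = 0.061) and -1.84 in the right atrium (edgeR adjusted p = 0.0765), neither of which passed.

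ENSRNOG00000025868 fell at a higher level of expression. It measured 6.62, 8.18, 1.72 and 1.67 CPM in failing node (4.55 ± 3.36, SD, n = 4) and 54.8, 36.9, 31.5 and 77.3 CPM in healthy node (50.1 ± 20.7, SD, n = 4). The highest failing library stayed below the lowest healthy one. The log2 change was -3.50 (SE 0.56, edgeR adjusted p = 0.00241). This gene also fell in both neighbouring regions, with a log2 change of -3.03 in superior node (edgeR adjusted p = 0.0133) and -2.92 in right atrium (edgeR adjusted p = 0.00634).

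**Figure D2:**
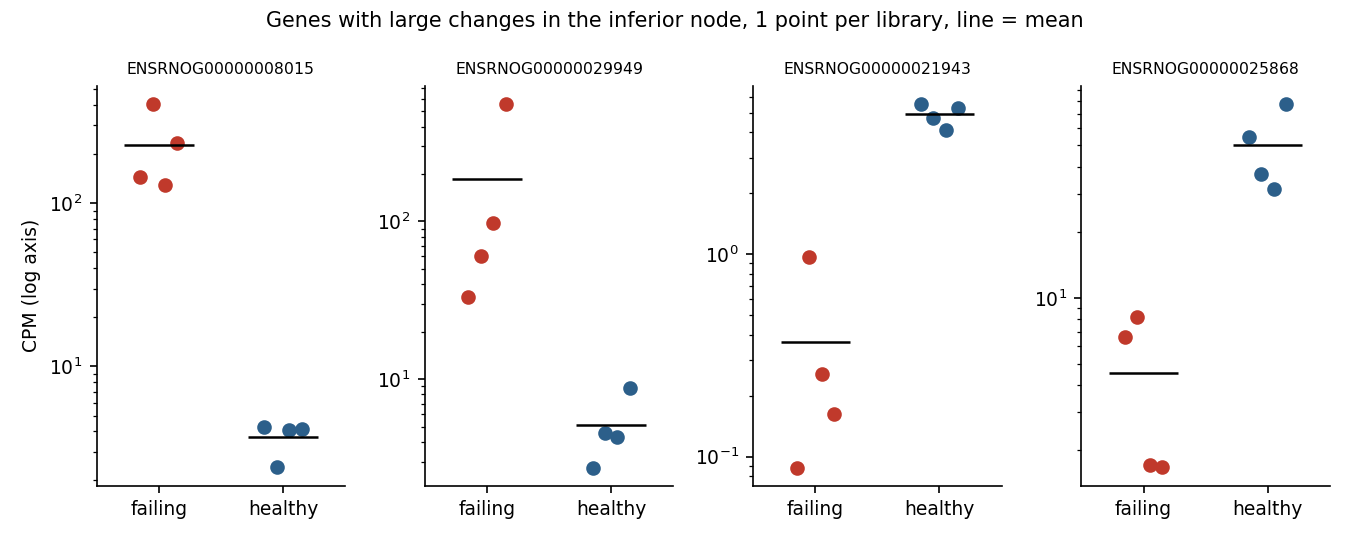
CPM on a log axis of 4 genes in the inferior node, with failing libraries in red and healthy ones in blue, 1 point per library and a line at the mean of 4. ENSRNOG00000008015 and ENSRNOG00000029949 are higher, and ENSRNOG00000021943 and ENSRNOG00000025868 lower, in all 4 failing libraries than in any healthy one. The genes were chosen among those whose groups do not overlap.

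To place the change in the anatomy of the heart, genes were grouped by the region that expressed them more, using libraries of the other regions alone. A gene entered a group when those libraries differed by at least 2-fold at an edgeR adjusted p under 0.05. No inferior node library took part in that choice. The 4-digit codes recur across regions, so the groups are not independent of the animals or batches that a code may mark. The groups were set up after it was known that no identifier matched a symbol.

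Genes that the healthy right atrium expresses more than the node were lower in failing inferior node. In healthy hearts 159 genes (1.13% of 14108 tested) were higher in right atrium than in superior node, here called atrium-enriched. Of the 150 that were also tested in the inferior node, 92 fell (61.3%) and 5 rose (3.33%) in failing node, against 19.0% and 19.5% of all tested genes. Their median log2 change was -1.01, and 72 of them fell by at least 2-fold. With the trend on transcript length (below) removed, 83 fell, 5 rose and the median was -0.90.

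The libraries did not overlap in the summed picture of this group. Its mean level, as log2 CPM averaged over the 159 genes, was 2.50, 2.56, 2.30 and 2.09 in failing inferior node and 3.58, 3.05, 3.17 and 3.38 in healthy inferior node. The means were 2.36 ± 0.21 in failing and 3.30 ± 0.24 in healthy node (SD, n = 4 each). Left atrium, which was not used to choose these genes, stood at 2.91 ± 0.31 in failing and 3.87 ± 0.10 in healthy hearts (SD, n = 4 each). The right atrium of failing hearts was at 3.29 ± 0.39, near the level of healthy inferior node. The superior node of failing hearts was at 2.43 ± 0.34 (1.92 to 2.67), near that of failing inferior node. Healthy superior node, at 2.89 ± 0.41 (2.28 to 3.13), overlapped failing superior node. Healthy right atrium was at 4.26 ± 0.07, and these 2 healthy groups chose the genes. So a lower level without overlap in failing hearts was seen in the inferior node and in left atrium alike. Left atrium ranged from 2.45 to 3.13 in failing and from 3.76 to 3.98 in healthy hearts. Right atrium did not overlap either, at 2.75 to 3.67 in failing and 4.19 to 4.34 in healthy hearts. Its healthy libraries helped to choose the genes, however. The lower level was thus not particular to the inferior node.

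Genes that the healthy superior node expresses more than the atrium did not fall in this way. In healthy hearts 907 genes (6.43% of 14108 tested) were higher in superior node than in right atrium, here called node-enriched. Of 892 tested in the inferior node, 205 rose (23.0%) and 57 fell (6.39%) in failing node, with a median log2 change of 0.29. Over all tested genes 19.5% rose and 19.0% fell. The share that rose was thus near that of all genes, and the share that fell was below it. At 2-fold or more, 155 rose and 35 fell, against 1138 and 565 of all 14379 tested genes. Their mean level was 3.52, 3.52, 3.48 and 3.32 log2 CPM in failing inferior node and 2.39, 3.66, 3.12 and 3.08 in healthy inferior node.

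Here the healthy libraries were spread widely and overlapped the failing ones. SB_0920 was the lowest for node-enriched genes and the highest for atrium-enriched genes, while SB_0921 was the highest for node-enriched and the lowest for atrium-enriched genes. The means were 3.46 ± 0.10 in failing and 3.06 ± 0.52 in healthy node (SD, n = 4 each). Without SB_0920 the median log2 change of node-enriched genes was 0.12, with 166 higher and 64 lower. Without SB_0921 it was 0.56, with 253 higher and 41 lower. How much node and how much atrial tissue a piece held was not measured, and its part in these values was not tested. The left atrium, whose libraries did not choose these genes, was at 1.85 to 2.17 in failing and 1.69 to 1.81 in healthy hearts, below all 8 inferior node libraries. The right atrium was at 1.65 to 1.76 in failing and 1.38 to 1.44 in healthy hearts. The superior node was at 3.16 to 3.68 in failing and 3.13 to 4.13 in healthy hearts. SB_0920, at 2.39, was closer to the highest left atrial library than to the lowest superior node library, and the other 7 inferior node libraries, at 3.08 or more, were closer to the superior node.

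**Figure D3:**
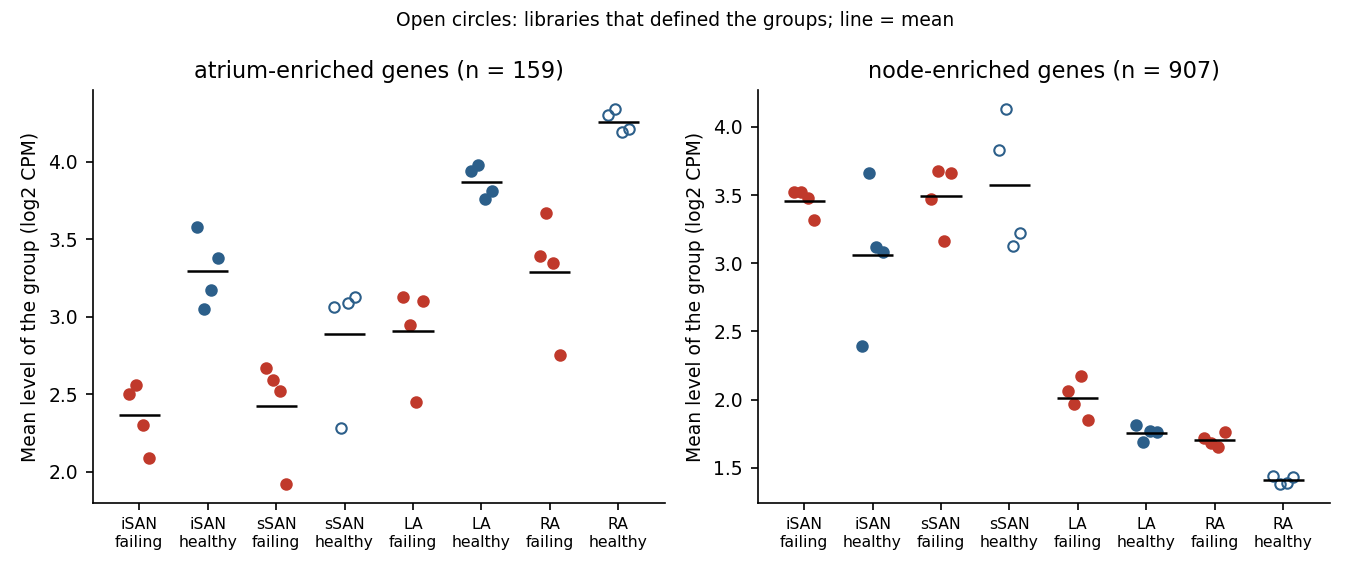
Mean level (log2 CPM) of 159 atrium-enriched genes on the left and 907 node-enriched genes on the right in 8 groups of 4 libraries (iSAN and sSAN, inferior and superior sinoatrial node; LA and RA, left and right atrium), failing in red and healthy in blue. Open circles are the libraries that defined the groups of genes and lines are means. Failing inferior node lies wholly below healthy inferior node for atrium-enriched genes (2.09 to 2.56 against 3.05 to 3.58) and overlaps it for node-enriched genes.

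The other regional groups had medians nearer 0, and their shares are read against the 19.5% higher and 19.0% lower of all tested genes. The healthy left ventricle was represented by LV_1001 and LV_1002 alone, so both ventricle groups rest on fewer libraries. Genes higher in left ventricle than in left atrium of healthy hearts numbered 946 (6.58% of 14367 tested). Of 883 tested in the inferior node, 123 rose (13.9%) and 186 fell (21.1%), with a median log2 change of -0.11. That median was 0.01 with limma on log2(TPM + 1) and -0.09 when the same TPM were TMM-scaled. The reverse group, higher in left atrium than in left ventricle, numbered 1138 (7.92% of 14367 tested), and of 1088 tested here 182 rose (16.7%) and 264 fell (24.3%), with a median of -0.13. Left over right atrium gave 173 genes (1.23% of 14024 tested), of which 163 were tested here, with 39 higher (23.9%), 14 lower (8.59%) and a median of 0.23. Right over left atrium gave 151 genes (1.08%), of which 150 were tested, with 33 higher (22.0%), 37 lower (24.7%) and a median of -0.15. These shares, like those of genes higher in left atrium than in ventricle, were near the shares over all genes.

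The genes that changed in failing left atrium mostly changed the same way in the inferior node. In left atrium 1340 genes (9.43% of 14217 tested) were at least 2-fold higher in failing than in healthy hearts. Of the 1293 tested in the inferior node, 912 rose (70.5%) and 1 fell (0.0773%), with a median log2 change of 1.07. In left atrium 863 genes (6.07% of 14217 tested) were at least 2-fold lower in failing hearts. Of the 827 tested in the inferior node, 556 fell (67.2%) and 6 rose (0.726%), with a median of -0.99. Over all tested genes of the inferior node 19.5% rose and 19.0% fell.

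The same 2 groups also moved in the neighbouring regions, whose libraries did not choose them. Over the 1234 raised genes tested in all 3 regions, the median log2 change was 1.06 for inferior node, 0.93 for superior node and 1.12 for right atrium. They were called higher 878, 630 and 973 times in those regions, and lower 1, 1 and 2 times. Over the 804 lowered genes tested in all 3, the medians were -0.99, -0.70 and -1.04. Of these, 546, 242 and 631 were called lower, and 5, 0 and 2 higher. The shares of all genes called in superior node and right atrium are not given here, so the counts there lack that background. A count of calls also depends on the spread between libraries of each region, and differences between regions were tested per gene as described further on.

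**Figure D4:**
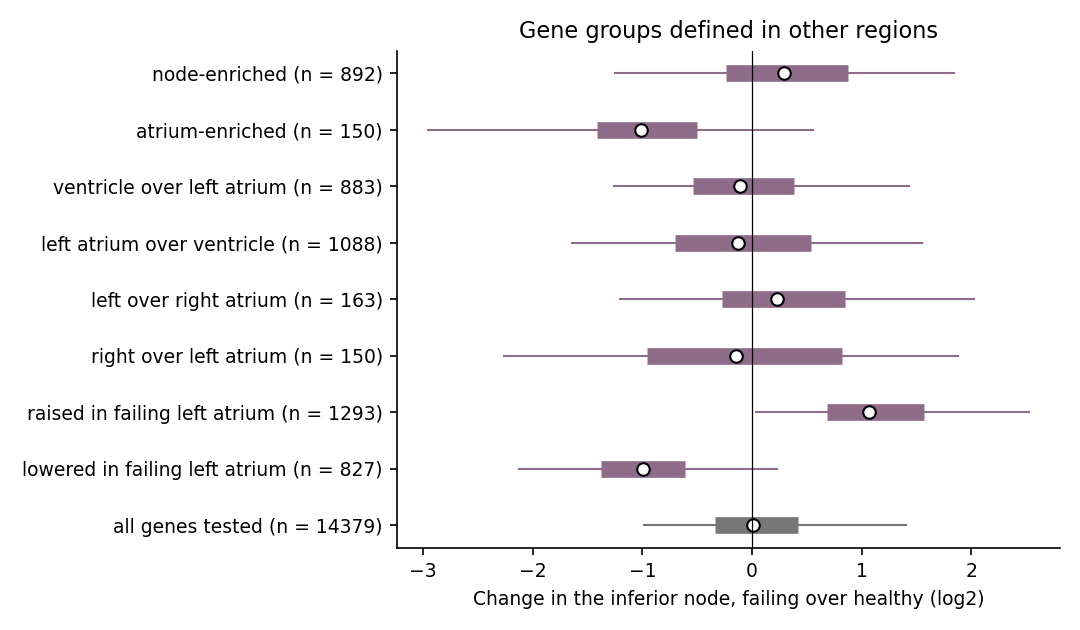
Log2 change in the inferior node (failing over healthy) of genes grouped by their expression in other heart regions, n genes each; circles are medians, boxes span the quartiles and lines the middle 90% of genes. Genes raised and lowered in failing left atrium have medians of 1.07 and -0.99, atrium-enriched genes of -1.01, and all 14379 tested genes of 0.01.

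Direction also went with transcript length. The deposited counts and TPM together give each gene's effective transcript length relative to the other genes. Tested genes were split by length into 5 classes of nearly equal size. In class 1, the shortest, under 0.55 times the median length, 870 rose (30.3%) and 264 fell (9.18%), with a median log2 change of 0.22. Class 2 had 666 higher (23.2%) and 372 lower (12.9%), with a median of 0.11. Class 3 was nearly balanced, with 547 higher (19.0%), 504 lower (17.5%) and a median of 0.02. Class 4 had 427 higher (14.8%) and 651 lower (22.6%), with a median of -0.07. In class 5, the longest, above 1.71 times the median length, 293 rose (10.2%) and 939 fell (32.6%), with a median of -0.21.

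Genes that rose had a median length of 0.782 times that of the median tested gene, and genes that fell one of 1.35 times. The trend separated the libraries. The mean log2 CPM of the shortest class minus that of the longest was -0.38, -0.55, -0.32 and -0.39 in failing libraries and -0.95, -0.77, -0.79 and -0.84 in healthy libraries. All failing libraries were above all healthy ones, with means of -0.409 ± 0.0987 in failing and -0.839 ± 0.079 in healthy node (SD, n = 4 each). RNA integrity per library is not given in the labels beyond a common minimum, and its part in the trend was not tested. When the trend was removed from the counts, 2658 genes were higher and 2586 lower, of which 2328 and 2138 were called in the same direction with the trend in place.

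The gene groups differed in length too. Relative to the median tested gene, the median length was 0.724 for genes raised in failing left atrium and 1.29 for those lowered there. It was 1.39 for atrium-enriched and 0.894 for node-enriched genes. Median lengths were 0.793 for ventricle over left atrium and 0.875 for right over left atrium, whose median changes were -0.11 and -0.15. They were 1.11 for left atrium over ventricle and 1.01 for left over right atrium, whose median changes were -0.13 and 0.23. With the length trend removed, the median changes of these groups, in the same order, were -0.18, -0.19, -0.10 and 0.21. What ties length to direction was not tested.

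**Figure D5:**
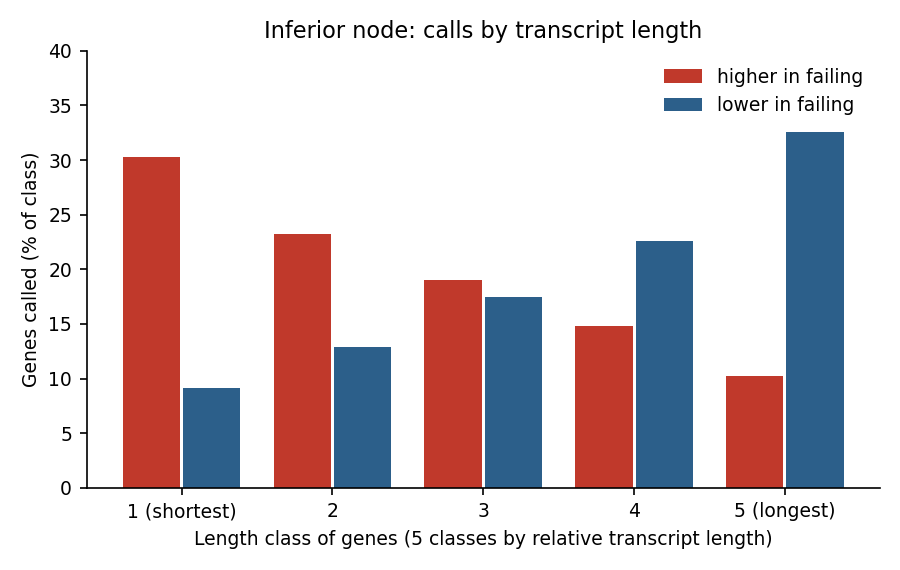
Share of tested genes (%) called higher (red) or lower (blue) in failing inferior node, in 5 classes of genes ordered by relative transcript length. The share called higher is 30.3% in the shortest and 10.2% in the longest class, and the share called lower is 9.18% and 32.6%.

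Differences between the inferior node and its neighbours were tested gene by gene, as the change in failing hearts in one region minus that in the other. Against the superior node, 0 of 14918 genes (0.0%) differed by edgeR's quasi-likelihood test, and 598 had an unadjusted p under 0.05. DESeq2 and limma also called 0, with 788 and 265 genes at an unadjusted p under 0.05. With the title code as a block in edgeR's test the count was 0 too, with 1700 of 15357 genes at an unadjusted p under 0.05. The smallest adjusted p of edgeR's test without the block was 0.96. A miss of the threshold does not show that both parts of the node changed alike, since the gene-wise test carries the spread of 16 libraries.

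Against the right atrium, 3 of 14785 genes (0.0203%) differed, with 1716 at an unadjusted p under 0.05. The count depended on single libraries: it was 158 without iSAN0409, and 6 without RA_0506, a failing right atrial library. The same codes occur in both regions and mark libraries that deviate together, and with the code as a block 9 genes differed, 5 with a larger and 4 with a smaller log2 change in the inferior node. DESeq2 called 99 genes. The 3 genes are named here after their values were seen, with results of the fit without the block. With the block, the edgeR adjusted p was 0.028 for ENSRNOG00000002385, 0.013 for ENSRNOG00000033528 and 0.013 for ENSRNOG00000064166.

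ENSRNOG00000002385 rose more in the inferior node than in the right atrium. It measured 86.5, 88.7, 74.2 and 133 CPM in failing inferior node and 15.1, 13.6, 15.7 and 14.4 CPM in healthy inferior node, a log2 change of 2.66 (edgeR adjusted p = 0.000314). In right atrium it measured 23.4, 16.3, 16.1 and 15.8 CPM in failing and 9.48, 9.15, 8.49 and 9.76 CPM in healthy hearts, a log2 change of 0.96 (edgeR adjusted p = 0.000835). It thus rose in all failing libraries of both regions, and the changes differed by 1.71 (SE 0.23, edgeR adjusted p = 0.00986). Healthy levels were close to each other within each of these 2 regions. In the superior node the log2 change was 2.18 (edgeR adjusted p = 0.00958). Its difference from the inferior node did not pass (edgeR adjusted p = 0.96). As the gene was called higher in superior node and right atrium too, a rise is not particular to the inferior node.

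ENSRNOG00000033528 separated the regions in another way, through a fall in the right atrium. In right atrium it measured 2.98, 3.89, 3.79 and 5.91 CPM in failing and 13.3, 12.7, 14.7 and 12.6 CPM in healthy hearts, a log2 change of -1.69 (edgeR adjusted p = 0.000311). In the inferior node it measured 15.1, 19.5, 11.6 and 18.0 CPM in failing and 13.9, 9.01, 11.2 and 13.7 CPM in healthy hearts, with overlapping groups and a log2 change of 0.39 (edgeR adjusted p = 0.137). The changes differed by 2.09 (SE 0.28, edgeR adjusted p = 0.00986). The superior node gave a log2 change of 0.23 (edgeR adjusted p = 0.583), and its difference from the inferior node did not pass (edgeR adjusted p = 0.978).

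ENSRNOG00000064166 was higher in both parts of the node than in the right atrium, in failing and in healthy hearts. It measured 46.4, 37.6, 41.1 and 69.2 CPM in failing inferior node and 23.4, 31.7, 31.0 and 19.3 CPM in healthy inferior node, a log2 change of 0.85 (edgeR adjusted p = 0.0178). In right atrium it was at 4.06, 4.44, 4.95 and 5.1 CPM in failing and 0.506, 0.339, 0.591 and 0.332 CPM in healthy hearts, a log2 change of 3.38 (edgeR adjusted p = 0.000105). The healthy right atrial values rest on as few as 8.03 estimated counts. The superior node gave a log2 change of 0.72 (edgeR adjusted p = 0.0988), and its difference from the inferior node did not pass (edgeR adjusted p = 0.98). The difference of the changes between inferior node and right atrium was -2.52 (SE 0.34, edgeR adjusted p = 0.00986). Its sign depended on the scale: with log2(TPM + 1) it was 0.36.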

How the data were processed

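Per the labels' protocols, libraries were prepared with Illumina's TruSeq RNA kit from RNA of small pieces of rat heart. Per the submitters' processing notes the tools were Trimmomatic 0.39 and kallisto 0.48.0. The authors deposited estimated counts per gene and TPM per gene for the 38 libraries. Not given in the sources used here are the genome build, the annotation, the strand setting and the summing of transcripts per gene. Overlapping or near-identical genes may share reads, which kallisto splits by estimate. Every sample column was tied to a library by its title, and 0 columns belonged to no sample.

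Groups follow the labelled region and health state. Estimated counts were rounded to whole numbers, filtered with edgeR's filterByExpr (minimum count 10, minimum total 15), scaled by TMM (trimmed mean of M values) and tested with edgeR 4.0.16 (robust quasi-likelihood, R 4.3.3), fitted to the 8 inferior node libraries. P-values were Benjamini-Hochberg adjusted over all genes tested, with a threshold of 0.05. Differences between regions were interaction terms of region and health state in fits over 16 libraries. Printed CPM are TMM-scaled over all 38 libraries, and mean levels of gene groups use log2 CPM with a prior count of 2. A standard error is the log2 change divided by the root of its test statistic. Relative length is log2 of estimated count over TPM, less its median within a library. Library values were compared by exact two-sided permutation tests (scipy 1.17.1). Scripts were tested on simulated counts with known changes. DESeq2 1.42.0, limma 3.58.1 on log2(TPM + 1) and log2(TPM + 0.1), other scalings and filters, all 38 libraries in 1 fit, left-out libraries, blocks on the title code and, added after the data were seen, removal of the length trend and TMM-scaled TPM were tried as alternatives.

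The genes named are the 2 with the largest change in each direction that passed the test, had an average log2 CPM from edgeR (the log of an average over libraries) of at least 1 and did not overlap between groups, plus those that differed between regions. ENSRNOG00000021943 has 1.68 by this average, and it is below 1 by the mean of log2 values, which one alternative filter used. The comparison, the lists and the rules were chosen with earlier results of these data known. As 0 of 24057 identifiers matched the RefSeq table, 39 lists of pathway and cell type genes, shares of mitochondrial and haemoglobin genes and promoter sequences were not used here. Whether title codes pair libraries was checked by correlating deviations from group means of libraries with 1 code. Correlations between inferior node and right atrium were 0.26 to 0.32 in failing and 0.12 to 0.24 in healthy hearts. Those between inferior and superior node were 0.32 to 0.54 in failing and -0.01 to 0.47 in healthy hearts, with code 0920 the lowest. Libraries of 1 code thus deviated together in both comparisons, except for code 0920 in the nodes. The reported fits have no block, and the counts with the block stand beside them. Failing and healthy libraries share no code, so the comparison of health states has no block. Replicate libraries differed by 3.2 to 21.1 times counting error in 12 pairs, and none was treated as a duplicate. Depth was between 17406473 and 27355777 estimated counts over all 38 libraries.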

Additional observations from a re-analysis of the deposited data

Results flagged for a closer look

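In 50 groups of 4 libraries examined for the named genes and library measures, 3 had 1 library far from the other three, and chance gives about 1 in 20 groups. ENSRNOG00000008015 stood at 2.4 CPM in SB_0921, below the other healthy inferior node libraries. ENSRNOG00000029949 stood at 555 CPM in iSAN0508, far above the other failing inferior node libraries. ENSRNOG00000002385 stood at 23.4 CPM in RA_0409, a failing library,, above the other failing right atrial libraries.

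The change in failing hearts differed between inferior node and right atrium for 3 genes, by edgeR's interaction test. The difference in log2 change was 1.71 for ENSRNOG00000002385, 2.09 for ENSRNOG00000033528 and -2.52 for ENSRNOG00000064166.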

How the results depend on the processing

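Genes higher in failing node numbered 1930 to 3220 over 19 alternatives and genes lower 953 to 3066. The lower count was 953 with limma on log2(TPM + 1) and 965 on log2(TPM + 0.1), where 66.9% and 67.1% of calls were higher, against 50.7% in the reported fit, with a median over all genes of 0.10 and 0.12. With TMM-scaled TPM the counts were 2631 and 2871. With all 38 libraries in 1 fit they were 2841 and 1949, with 59.3% of calls higher. Leaving out 1 library gave 2147 to 2982 higher and 2074 to 2868 lower genes. The 4 genes with large changes kept their calls in every alternative that gave a value. They were chosen for large changes without overlap in the same libraries, so this was largely fixed by that choice.

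Genes differing from the superior node numbered 0 in all 23 alternatives. With the code as a block this count was 0 too, with 1700 genes at an unadjusted p under 0.05. For the right atrium the count of 3 became 9 with the code as a block, 99 with DESeq2, 6 with limma on log2(TPM + 1), and 2 to 158 with 1 library left out. For ENSRNOG00000064166 the difference was 0.36 with limma on log2(TPM + 1) and 0.18 on TMM-scaled TPM. Its right atrial means, 0.327 TPM in failing and 0.0377 TPM in healthy hearts, were below the 1 added before taking logs. The difference missed the threshold without RA_0921, a healthy right atrial library (edgeR adjusted p = 0.06), and with the length trend removed (edgeR adjusted p = 0.051). Why the threshold was missed was not tested. The median of atrium-enriched genes was -0.52 with limma on log2(TPM + 1), and -1.09 to -0.90 with 1 library left out.

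With 4 libraries a group, health state cannot be told apart from anything tied to the title codes. Tissue makeup and RNA integrity per library were not measured. The regional groups rest on libraries of the same codes.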
